A study of Mus musculus with 27 samples.

Results

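Sycp3, Slc5a7 and Lctl are 3 of the 36333 genes in a table of mouse RNA-seq values, and they were chosen by their adipose values, which were higher in old than in young mice, as genes best known from germ cells, neurons or the lens. Their adipose values are therefore given as a description without a test, whereas their values in liver and skeletal muscle, which played no part in the choice, were tested. All 27 samples came from MlxKO mice on a B6.129 background, which carry the Gt(ROSA)26Sortm1(cre/ERT2)Tyj allele together with Mlx Flox/Flox and in which a tamoxifen-activated Cre recombinase driven by the ROSA26 promoter deletes Mlx throughout the body. Each mouse had received 5 daily intraperitoneal injections of tamoxifen at 75 mg/Kg at weaning, once it weighed 15 g or more, so the deletion, the Cre transgene and the drug were shared by every group. The study compared omental adipose tissue, liver and skeletal muscle at 5 months (n = 4 mice, the same mice in each tissue, here lettered A to D in the order of their label numbers) and at 20 months (n = 5 samples per tissue, with separate sample numbers). The older age is the one the labels state, but the codes in the same sample names carry an 18, so the age of these mice is uncertain between 18 and 20 months. No wild-type mouse was analysed here, so the values bear on age and tissue among MlxKO mice and not on the loss of Mlx itself.

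Sycp3 encodes a lateral element protein of the synaptonemal complex, the ladder-like structure that joins paired chromosomes in meiosis. Somatic cells normally keep such germline genes silent, through promoter DNA methylation and through repressor complexes that contain E2f6 or Mga. Slc5a7 encodes the high-affinity choline transporter of cholinergic nerve endings, where choline is taken up again for the synthesis of acetylcholine by choline acetyltransferase (Chat) and the product is loaded into vesicles by Slc18a3. Lctl encodes lactase-like protein, a member of the klotho family that is best known from the lens of the eye. Its relatives Kl and Klb serve as co-receptors for endocrine fibroblast growth factors.

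Values are read counts scaled by 1 factor per sample, called scaled reads here. Between 14384695 and 25673919 reads fell on genes in a sample, and 1 read was worth between 0.0234 and 0.0806 scaled reads. A count of 0 allows a value of up to 3 reads, which came to between 0.0703 and 0.242 scaled reads by sample, and these limits cover counting error only. No pair of samples of a group agreed within sampling noise (chi-square per degree of freedom of 9.21 to 202 over 48 pairs). Adipoq, which encodes the adipocyte hormone adiponectin, lay between 532 and 1182 scaled reads in the adipose samples, between 4.06 and 17.8 in muscle, and at no more than 0.0800 in liver. Mlx itself still gave reads in all groups, at 8.19 to 13.9 scaled reads in adipose tissue, and without a wild-type sample this does not check the deletion. The labels name no batch, so age cannot be told apart from anything else that differed between the collections.

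The 3 genes lie on different chromosomes (GRCm38). Sycp3 (gene 20962) spans chromosome 10 from 88459587 to 88473236 on the plus strand, Slc5a7 (gene 63993) spans chromosome 17 from 54273590 to 54299038 on the minus strand, and Lctl (gene 235435) spans chromosome 9 from 64117123 to 64138118 on the plus strand. The 250 bases before each RefSeq transcript start (RefSeq, GRCm38.p6) are printed below, 5′ to 3′ on the strand of the gene, because members that move together invite a look at their promoters. Capitals mark CACGTG, the E-box letters that Myc, Max, Mga and the Mlx partners can bind.
Sycp3, chr10:88459337-88459586: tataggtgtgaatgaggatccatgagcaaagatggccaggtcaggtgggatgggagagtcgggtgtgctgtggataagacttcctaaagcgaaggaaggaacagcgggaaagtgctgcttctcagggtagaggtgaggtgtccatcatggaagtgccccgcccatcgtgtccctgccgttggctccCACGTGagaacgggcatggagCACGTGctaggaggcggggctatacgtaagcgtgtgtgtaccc
Slc5a7, chr17:54299035-54299284: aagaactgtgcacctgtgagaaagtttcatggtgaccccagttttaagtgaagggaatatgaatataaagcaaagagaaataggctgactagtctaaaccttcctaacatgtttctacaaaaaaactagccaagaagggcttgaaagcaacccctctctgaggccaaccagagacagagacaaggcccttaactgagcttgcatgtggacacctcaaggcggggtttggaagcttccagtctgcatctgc
Lctl, chr9:64116897-64117146: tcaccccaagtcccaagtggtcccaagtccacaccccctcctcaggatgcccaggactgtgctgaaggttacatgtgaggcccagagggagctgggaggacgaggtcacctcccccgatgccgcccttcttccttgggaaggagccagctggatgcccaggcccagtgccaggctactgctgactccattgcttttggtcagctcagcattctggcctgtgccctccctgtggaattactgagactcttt
The last bases of the Slc5a7 and Lctl windows lie inside the annotated gene spans, since other transcripts start further upstream.

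The Sycp3 window held 2 matches to CACGTG, which reads the same on both strands, starting 64 and 43 bases before the transcript start. Of 32851 RefSeq promoters of the same length, 6.02% held at least 1 such match and 0.429% held 2 or more. The Slc5a7 and Lctl windows held none. No window held TGACGTCA, the cyclic AMP response element (1.55% of promoters), or TTTCGCGC, an E2F site (0.256% of promoters), on either strand. Only these exact letters were searched. Other forms of either site were not, so the windows are not shown to lack E2F sites. The dinucleotide CG occurred 12 times in the Sycp3 window, 1 time in that of Slc5a7 and 3 times in that of Lctl, against a median of 6 over all promoters. These matches describe letters only, and no binding or methylation was measured.

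Sycp3 in adipose tissue measured 3.57, 2.48, 3.09 and 3.64 scaled reads in the 5-month mice A, B, C and D. It measured 42.7, 52.2, 37.4, 32.5 and 49.4 in the 20-month mice 36 to 40. Both ages were tight and far apart. The means were 3.19 ± 0.538 (SD, n = 4) and 42.8 ± 8.19 (SD, n = 5), a ratio of 13.4, and the lowest old mouse lay 8.93-fold above the highest young one. The values rested on 67 to 125 reads per young mouse and 1256 to 1654 reads per old mouse.

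Slc5a7 in adipose tissue was at 0 in the 5-month mice A and B, at 2.59 in mouse C and at 8.09 in mouse D. In the 20-month mice it measured 26.1, 72.8, 16.3, 64.1 and 45.5 scaled reads. The ages did not overlap, but the gap between them was narrower than for Sycp3 (2.01-fold from the highest young to the lowest old mouse) and the old mice spread over 4.48-fold. The means were 2.67 ± 3.81 (SD, n = 4) and 45.0 ± 24.1 (SD, n = 5), a ratio of 16.8.

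Lctl in adipose tissue measured 1.85, 0.554, 5.54 and 7.04 scaled reads in the same 4 young mice. In the 20-month mice it measured 29.9, 62.4, 60.1, 63.2 and 76.7. Mouse 36 was the lowest of the old mice and still lay 4.24-fold above the highest young one. The means were 3.75 ± 3.05 (SD, n = 4) and 58.5 ± 17.3 (SD, n = 5), a ratio of 15.6. On the log2(value + 1) scale the difference of 20 minus 5 months was 3.37 for Sycp3, 4.07 for Slc5a7 and 3.86 for Lctl. Among all 14005 genes tested in adipose tissue, every old mouse lay above every young one for 8.3%, and since this contrast chose the members nothing is read from that share.

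**Figure D1:**
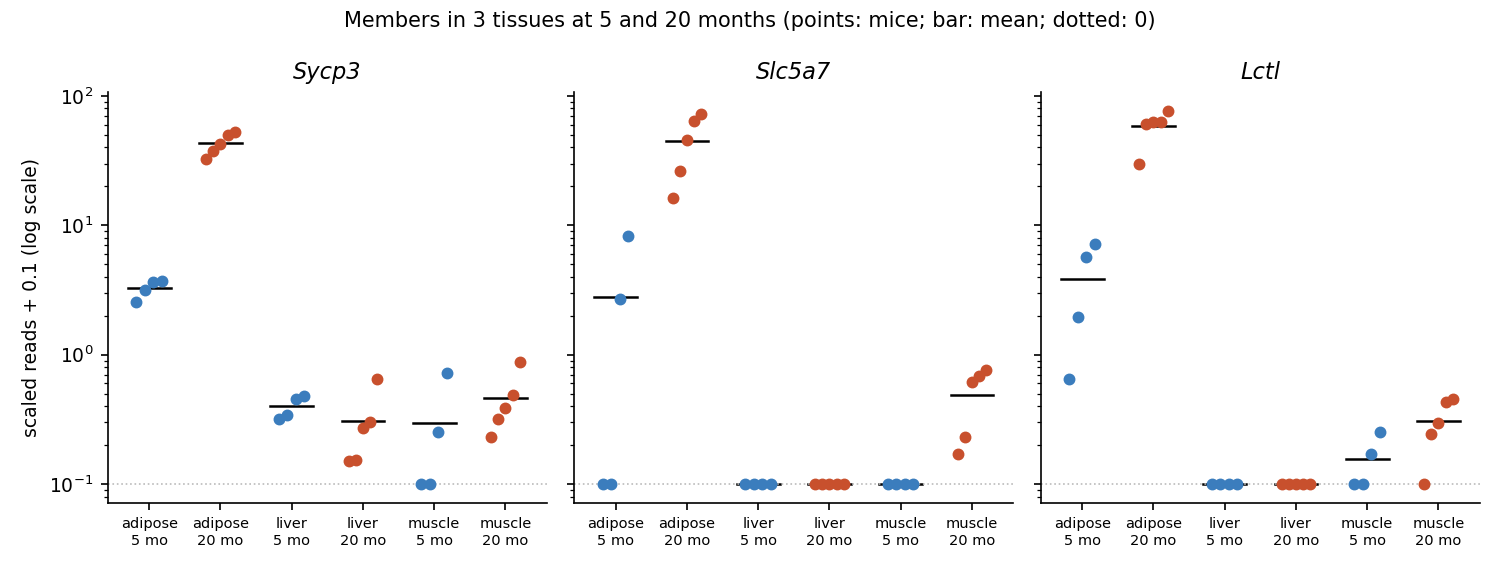
Scaled reads plus 0.1 on a log axis for Sycp3, Slc5a7 and Lctl in each mouse, by tissue and age (blue, 5 months, n = 4; red, 20 months, n = 5; black bars, group means; the dotted line is a value of 0). The old adipose samples sit above every other sample in each panel, and the liver samples of Slc5a7 and Lctl sit at 0.

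The order of the 6 tissue and age groups was led in each gene by 20-month adipose tissue. For Sycp3, 5-month adipose tissue came next, and the lowest of its mice (2.48) exceeded the highest liver or muscle sample (0.784). Below that the 20-month muscle (0.364 ± 0.253), 5-month liver (0.299 ± 0.0820), 20-month liver (0.205 ± 0.205) and 5-month muscle (0.195 ± 0.297) overlapped one another. For Lctl, 5-month adipose tissue also lay above all muscle samples (lowest 0.554 against a highest of 0.356). For Slc5a7 it did not, because 2 young adipose samples were at 0. Divided by the annotated exonic length, the mean level in old adipose tissue was 33.9 scaled reads per kilobase for Sycp3, 22.5 for Lctl and 7.97 for Slc5a7, so Slc5a7 was the least abundant transcript per length although its scaled reads were similar.

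The young mice differed among themselves in Slc5a7 and Lctl much more than in Sycp3. Across the 4 young adipose samples the coefficient of variation was 1.43 for Slc5a7, 0.813 for Lctl and 0.169 for Sycp3. Mouse B was lowest and mouse D highest for Lctl, with A and C between them, and Slc5a7 followed the same order with B and A both at 0. Of the adipocyte markers, Adipoq, Lep and Plin1 ran in that order as well. Pparg did not, being highest in mouse B (123 scaled reads) and lowest in mouse D (73.4). The rest of the list is not given by mouse here. Lep, which encodes leptin, measured 17.6, 112, 336 and 480 scaled reads in mice B, A, C and D, and Plin1, which encodes the lipid droplet coat protein perilipin, measured 50.0, 242, 281 and 374. With 4 mice this order was not tested. In the old mice Lep was highest in mice 37 and 39 (1627 and 881), as was Slc5a7, and lowest in mouse 36 (316), whereas Slc5a7 was lowest in mouse 38.

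**Figure D2:**
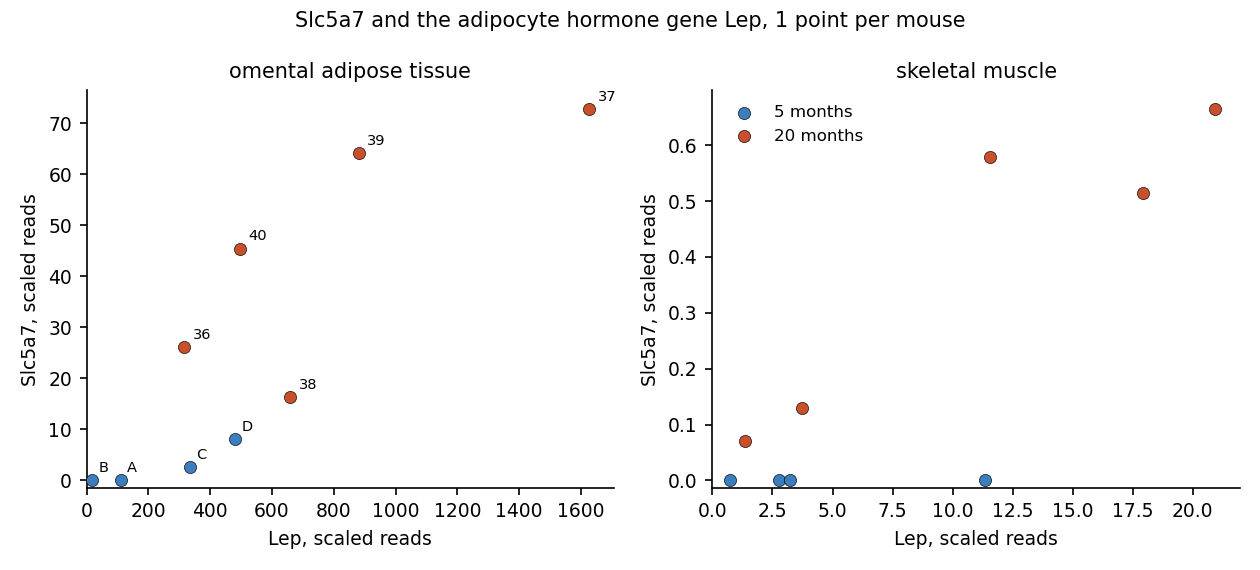
Slc5a7 against Lep, both in scaled reads on linear axes, in adipose tissue (left, mouse numbers beside the points) and in skeletal muscle (right), blue at 5 months (n = 4) and red at 20 months (n = 5). In adipose tissue the young mice B and A have little Lep and no Slc5a7, and in muscle all 5 old mice lie above 0 for Slc5a7 while all 4 young mice lie at 0.

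The adipocyte markers were read beside the members. Of the 7 markers, none was higher and 1 was lower at 20 months by limma with Benjamini-Hochberg adjustment over all genes tested, of which 9.75% were higher and 9.35% lower. Their summed level was 9738 to 17912 scaled reads at 5 months and 12180 to 18115 at 20 months, and none was at 0. The marker that fell was Pparg, the nuclear receptor that directs fat cell formation, from 102 ± 21.9 to 66.3 ± 11.7 (limma adjusted p = 0.0464), and leaving out 1 sample took this call away in 8 of 9 fits. Lep had 236 ± 210 and 796 ± 509 scaled reads (limma adjusted p = 0.0812), and Plin1 had 237 ± 136 and 594 ± 157 (limma adjusted p = 0.0542). Adipoq had 777 ± 240 and 1022 ± 184 (limma adjusted p = 0.209). When each adipose sample was rescaled to equal Adipoq, an alternative chosen after seeing the data, the log2 differences of Sycp3, Slc5a7 and Lctl were 3.01, 3.97 and 3.59. Per 100 scaled reads of Adipoq, Sycp3 came to 0.339 to 0.556 in young and 3.62 to 4.76 in old adipose tissue. In bulk tissue, more cells of a type and more RNA per cell cannot be told apart.

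In liver neither Slc5a7 nor Lctl gave a read in any of the 9 mice. Set against 3 reads in the old liver where a read weighed most, the mean in old adipose tissue was at least 264-fold higher for Slc5a7 and at least 343-fold higher for Lctl. Sycp3 in liver measured 0.382, 0.218, 0.356 and 0.240 scaled reads in the 5-month mice A, B, C and D (3 to 6 reads) and 0.0509, 0.200, 0.0530, 0.170 and 0.551 in the 20-month mice 16, 17, 18, 19 and 74 (1 to 11 reads). The ages overlapped, and the log2 difference of -0.12 did not pass an exact two-sided permutation test over all 126 splits of the 9 mice (p = 0.325, adjusted p = 0.5 over 6 tests).

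In skeletal muscle Slc5a7 was at 0 in all 4 young mice and at 0.130, 0.665, 0.579, 0.514 and 0.0713 scaled reads in the old mice 56 to 60. These are 1 to 10 reads per old mouse and 28 reads in all. Every old mouse lay above every young one, as was the case for 5.32% of the 22100 genes with any read in muscle. Of the 1530 genes with reads in muscle that were at 0 in all 4 young mice, 4 (0.261%) were above 0 in all 5 old mice, and Slc5a7 was 1 of them. The log2 difference of 0.45 had an exact two-sided permutation p = 0.0238 and an adjusted p = 0.143 over the 6 tests, so it did not pass. The smallest p this design allows is 0.00794.

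Adipocyte transcripts were present in the same muscle samples. Adipoq measured 6.07, 8.46, 5.64 and 12.9 scaled reads in muscle of mice A, B, C and D, and 7.56, 17.8, 10.7, 17.7 and 4.06 in mice 56 to 60. The 3 old muscles with the most Adipoq and Lep (57, 58 and 59) were also the 3 with the most Slc5a7. Sycp3 and Lctl did not follow that order. Muscle 60 had the least Adipoq and Lep of the old muscles (4.06 and 1.35) but the most Sycp3 and Lctl (0.784 and 0.356, from 11 and 5 reads). All 7 adipocyte markers were tested in muscle and none passed limma at an adjusted p of 0.05, as 19.3% of the 12720 genes tested there did, with summed levels of 1114 to 1802 scaled reads at 5 months and 1292 to 1732 at 20 months. Per 100 scaled reads of Adipoq, Slc5a7 came to 1.72 to 5.41 in old muscle and 1.88 to 8.13 in old adipose tissue, ranges that overlap. In young mice it came to 0 in muscle and 0 to 0.753 in adipose tissue. On the same scale Sycp3 came to 0 to 4.86 in young and 0.749 to 19.3 in old muscle, beside 0.339 to 0.556 and 3.62 to 4.76 in adipose tissue. Lctl came to 0 to 2.53 in young and 0 to 8.77 in old muscle, beside 0.104 to 0.655 and 2.53 to 8.02 in adipose tissue. The part of adipocyte RNA in the muscle values was not tested.

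Sycp3 and Lctl in muscle stayed near the limit of detection. Sycp3 measured 0.154, 0, 0 and 0.627 scaled reads in the young mice A, B, C and D and 0.391, 0.133, 0.289, 0.220 and 0.784 in the old mice 56 to 60, and the ages overlapped (exact permutation p = 0.333, adjusted p = 0.5). Lctl lay at 0 to 0.154 in young and 0 to 0.356 in old muscle, with 3 and 15 reads in all (exact permutation p = 0.127, adjusted p = 0.381). On the log2(value + 1) scale the difference of 20 minus 5 months in muscle was 0.20 for Sycp3 and 0.19 for Lctl, beside 3.37 and 3.86 in adipose tissue.

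Sycp3 overlaps another gene in the annotation. Its 3′ end runs into Chpt1, a cholinephosphotransferase gene of phosphatidylcholine synthesis on the opposite strand, and 660 of its 1264 annotated exonic bases (52.2%) are shared with exons of Chpt1. The library kit marks strand, but the strand setting of the counting is not given in the sources used here. Chpt1 was abundant everywhere, at 252 to 574 scaled reads in adipose tissue, 362 to 662 in liver and 173 to 286 in muscle. Sycp3 came to 0.603 to 0.869 reads per 100 reads of Chpt1 in young adipose tissue and 9.79 to 14.8 in old adipose tissue. In liver, where Chpt1 was as abundant, the same ratio was 0.00845 to 0.152. Chpt1 itself had 473 ± 78.3 scaled reads in young and 402 ± 122 in old adipose tissue (log2 change -0.28, limma adjusted p = 0.396). Among the old mice, 36, 40 and 37 had the highest values of both genes, in the same order. The part of Chpt1 reads in the Sycp3 values was not tested.

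**Figure D3:**
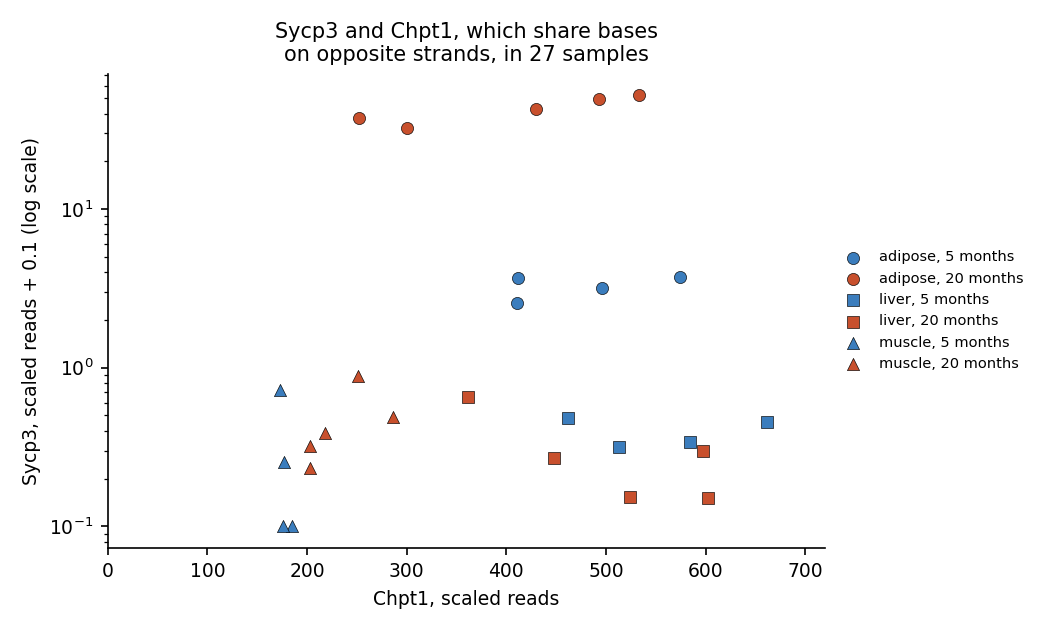
Sycp3 (scaled reads plus 0.1, log axis) against Chpt1 (scaled reads, linear axis) in all 27 samples, with circles for adipose tissue, squares for liver and triangles for muscle, blue at 5 and red at 20 months. Liver samples have as much Chpt1 as adipose samples (362 to 662 against 252 to 574) but no more than 0.551 scaled reads of Sycp3.

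Of the other neighbours that reached the filter, Gnptab alone passed the test. Gnptab, which lies 12263 bases before Sycp3 and encodes a subunit of the enzyme that tags lysosomal proteins with mannose phosphate, rose from 27.9 ± 2.71 to 48.0 ± 8.12 scaled reads (log2 change 0.75, limma adjusted p = 0.0152). Mybpc1, a muscle myosin-binding protein gene 45043 bases beyond Sycp3, had a log2 change of -1.28 (limma adjusted p = 0.243). Zwilch, a kinetochore gene on the opposite strand that shares 254 of the 2604 exonic bases of Lctl (9.75%), had 1.71 ± 0.463 and 2.73 ± 0.484 scaled reads (limma adjusted p = 0.074). Lctl exceeded Zwilch 15.1-fold to 23.9-fold in the old adipose samples. Rpl4, a ribosomal protein gene beyond Zwilch, had a log2 change of 0.13 (limma adjusted p = 0.495). Slc5a7 overlaps no annotated gene, and its neighbours Sult1c1 and 1700025K24Rik were at 0 in every adipose sample, as was Gm39360 beside Lctl.

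None of the tested genes of the 3 lists of germ cell genes passed the test in adipose tissue. The lists of the synaptonemal complex, meiotic entry and recombination, and germline genes silenced in somatic cells held 61 names. Of these 57 matched a gene in the table, and the rest were alternative names of genes among the 57. The filter of 1 scaled read in at least 4 of the 9 adipose samples was reached by 10. None of the 10 passed limma at an adjusted p of 0.05, whereas 9.75% of the 14005 genes tested passed as higher and 9.35% as lower. At an unadjusted p under 0.05 there was 1 gene, edgeR on the recovered reads called 0 and DESeq2 called 1. Sycp1, which encodes the transverse filament partner of Sycp3, was at 0 in 8 of 9 adipose samples and had 2 reads (0.0779 scaled reads) in mouse 37. Sycp2, the other lateral element gene, had 0.419 ± 0.126 scaled reads at 5 months and 0.805 ± 0.302 at 20 months and was under the filter. Syce3, Tex12 and Hormad1 were at 0 in all 9. Rec8, a meiotic cohesin gene picked out after its values were seen, reached 12.2 scaled reads in 1 adipose sample, with 6.83 ± 5.60 at 5 months and 1.94 ± 2.89 at 20 months (limma adjusted p = 0.233), and the other 14 genes of the complex in the table stayed under 2.

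Markers of testis and epididymis were read in the adipose samples. The 9 spermatocyte and spermatid markers, such as the protamine genes Prm1 and Prm2, summed to 0 to 6.17 scaled reads in young and 0 to 2.13 in old adipose tissue, none reached the filter, and Acrv1 was at 0 throughout. The 7 epididymal markers summed to 0 to 3.14 and 0.149 to 6.30, with Adam7 giving nearly all of the highest sum (6.14). Of the 5 Sertoli markers 3 were tested and Dhh fell from 8.12 ± 2.29 to 3.36 ± 1.55 (limma adjusted p = 0.0303). Of all genes tested 9.35% were lower, and the Dhh call was lost in 6 of 9 fits that left out 1 sample. The Sertoli markers summed to 17.7 to 40.2 scaled reads in young and 4.52 to 24.02 in old adipose tissue. The 6 Leydig markers summed to 4.48 to 5.998 and 2.81 to 6.30, with 1 tested and none called.

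The genes of germline silencing were expressed at both ages. All 22 were tested, 2 rose, 1 fell and 19 did not pass, with a median log2 change of -0.04. Of all genes tested 9.75% were higher and 9.35% lower. E2f6, a repressor of germline promoters, rose from 15.98 ± 1.16 to 22.01 ± 3.20 scaled reads (log2 change 0.43, limma adjusted p = 0.0414). Dnmt3a, a DNA methyltransferase, rose from 39.7 ± 2.93 to 55.9 ± 8.94 (log2 change 0.47, limma adjusted p = 0.0403), and Rybp, a subunit of a Polycomb complex, fell from 28.3 ± 5.15 to 20.3 ± 2.26 (limma adjusted p = 0.0489). All 3 lay close to the threshold, and leaving out 1 sample at a time took the call from E2f6 in 8 of 9 fits, from Dnmt3a in 7 and from Rybp in 7. Mga had 36.3 ± 3.69 and 44.3 ± 7.53 scaled reads (limma adjusted p = 0.185), Pcgf6 had 5.06 ± 0.307 and 4.11 ± 0.658 (limma adjusted p = 0.164), and Dnmt1 had 23.1 ± 4.56 and 33.9 ± 8.72 (limma adjusted p = 0.097).

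The genes that accompany Slc5a7 in cholinergic neurons gave few or no reads in adipose tissue. Chat was at 0 in all 27 samples, and Slc18a3 gave reads in 1 adipose sample only (0.0582 scaled reads in mouse D). Of the 6 genes of acetylcholine synthesis, loading and breakdown only Bche, which encodes a cholinesterase, was tested, with 40.5 ± 15.0 and 45.8 ± 15.9 scaled reads (limma adjusted p = 0.715). Of 21 acetylcholine receptor genes 3 were tested and Chrnb1 fell from 14.1 ± 3.93 to 7.23 ± 2.61 (limma adjusted p = 0.0421). Of all genes tested 9.35% were lower, and leaving out 1 sample took the Chrnb1 call away in 7 of 9 fits. Of 13 neuron markers 2 were tested and none was called, and Dbh, a noradrenaline synthesis gene of sympathetic neurons, was at 0 in all 9 adipose samples. The summed neuron markers came to 7.16 to 13.8 scaled reads at 5 months and 9.58 to 60.02 at 20 months, most of it from Uchl1 (up to 54.6, limma adjusted p = 0.113).

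Of the 12 tested genes of choline handling outside neurons 2 fell and none rose, where 9.35% of all genes tested were lower. Chdh, which oxidises choline, fell from 50.0 ± 12.4 to 19.8 ± 5.85 scaled reads (log2 change -1.30, limma adjusted p = 0.0114), with every old mouse (15.4 to 29.7) below every young one (36.7 to 65.4). Chka, the kinase that commits choline to phosphatidylcholine, fell from 36.001 ± 12.7 to 18.4 ± 4.34 (log2 change -0.89, limma adjusted p = 0.0330). Leaving out 1 sample took the Chka call away in 6 of 9 fits and the Chdh call in 0. The median log2 change of the 12 was -0.24. Among the 12 other Slc5 transporter genes 2 were tested and Slc5a6, a vitamin transporter, fell from 10.1 ± 1.38 to 7.28 ± 0.654 (limma adjusted p = 0.0429). The Slc5a6 call was lost in 7 of 9 fits that left out 1 sample.

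The klotho relatives of Lctl had lower means in old than in young adipose tissue, without passing the test. Kl had 6.18 ± 4.55 and 0.811 ± 1.28 scaled reads (limma adjusted p = 0.0921), and Klb had 55.1 ± 17.1 and 32.4 ± 11.9 (limma adjusted p = 0.0799). Of the 10 genes of the klotho family, endocrine Fgf ligands and Fgf receptors, 7 were tested, 1 fell and none rose. The one that fell was the receptor gene Fgfr3, from 20.8 ± 3.43 to 7.57 ± 5.25 (log2 change -1.56, limma adjusted p = 0.0331). Of all genes tested 9.75% were higher and 9.35% lower, and leaving out 1 sample took the Fgfr3 call away in 6 of 9 fits. No lens fibre marker reached the filter, and the 6 of them summed to 0.702 to 1.39 scaled reads in young and 0.867 to 2.42 in old adipose tissue.

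Across all 9 pathway lists 8 of 57 tested genes passed, with 2 higher and 6 lower, against 9.75% higher and 9.35% lower among all genes tested. Their change in adipose tissue was also set against that in the other tissues by a limma fit of all 27 samples. It differed from the change in liver for 10 of 68 genes, 3 of them higher in adipose tissue (all genes tested 15.6%), and from the change in muscle for 9 of 68, 3 of them higher (all genes tested 14.7%). Neither share exceeded that of the table as a whole.

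**Figure D4:**
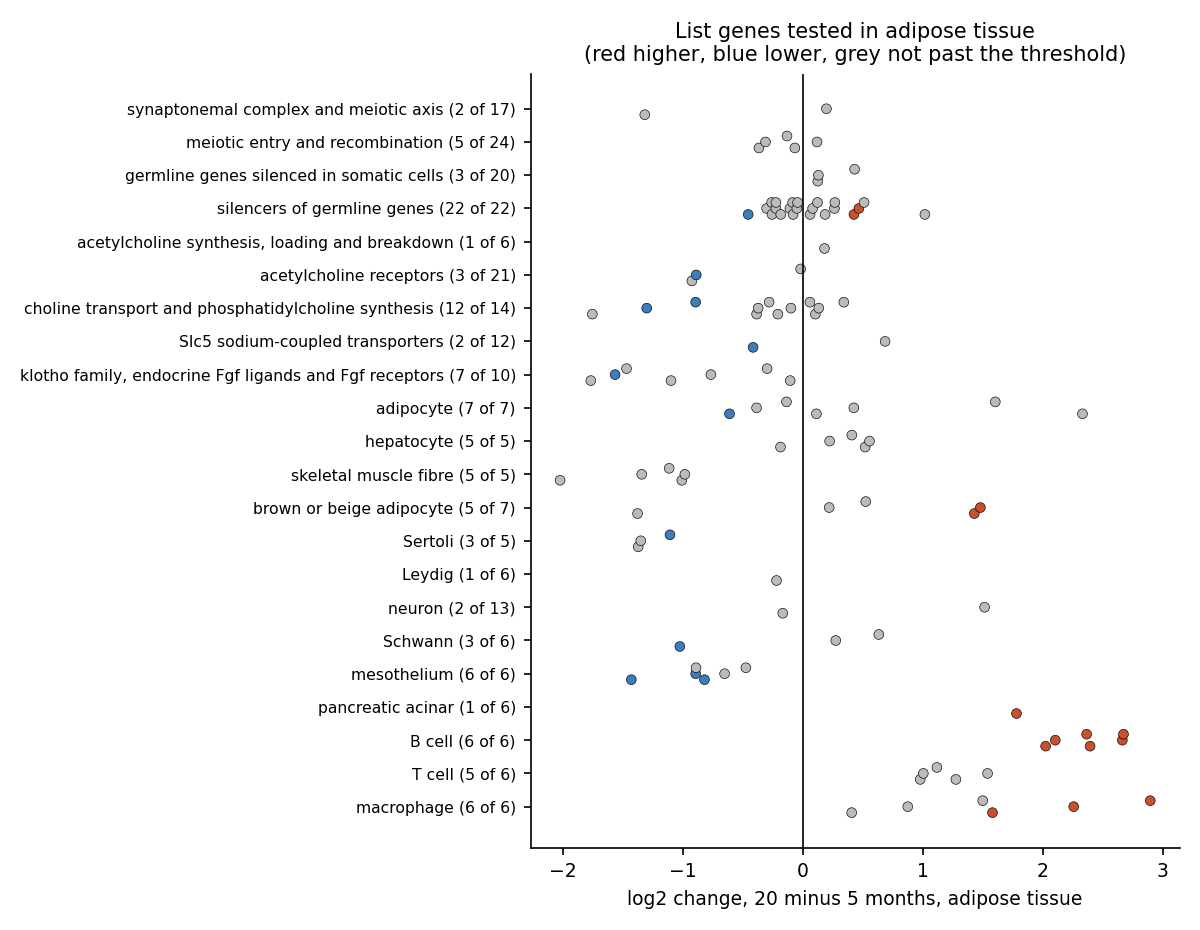
The log2 change of 20 minus 5 months in adipose tissue for each tested gene of the pathway and marker lists, with the number tested of the number listed, in red where higher, blue where lower and grey where not past an adjusted p of 0.05 by limma. The germ cell, cholinergic and klotho lists hold no red point, while all 6 B cell markers and 3 of 6 macrophage markers do.

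Among the marker lists, those of B cells and macrophages held the most genes that rose in old adipose tissue. Of all genes tested 9.75% were higher and 9.35% lower. All 6 B cell markers rose, for example Cd79a, which encodes a chain of the B cell receptor, from 2.40 ± 1.51 to 25.9 ± 17.3 scaled reads (limma adjusted p = 0.0312), and their sum was 3.33 to 19.11 in young and 13.2 to 178 in old adipose tissue. Of 6 macrophage markers 3 rose, among them Trem2, a receptor of lipid-laden macrophages, from 13.1 ± 7.41 to 134 ± 116 (limma adjusted p = 0.0269), with sums of 302 to 540 and 392 to 1788. Leaving out 1 sample took the call from Cd79a in 5 of 9 fits, from Trem2 in 4 and from Cox8b, a marker given below, in 6. None of 5 tested T cell markers passed. Among the old mice, mouse 37, with the highest Sycp3 and Slc5a7, had the lowest B cell sum (13.2), and mouse 38, with the lowest Slc5a7, had the highest macrophage sum. Mouse 36, with the lowest Lctl, had the lowest macrophage sum (392). Mouse 40, with the highest Lctl (76.7), had the highest B cell sum (178). Of 6 mesothelial markers 3 fell, with sums of 70.0 to 144 and 36.9 to 80.2. Of the 7 brown or beige adipocyte markers 5 were tested. Cidea and Cox8b rose from 0.824 ± 0.347 to 3.93 ± 1.03 (limma adjusted p = 0.00757) and from 2.66 ± 1.497 to 9.23 ± 3.33 (limma adjusted p = 0.0273). The other 3 did not pass. Cox7a1 and Dio2 had higher means at 20 months, whereas Ppargc1a had 10.8 ± 5.66 and 3.31 ± 2.03 (limma adjusted p = 0.0532). Ucp1 and Elovl3 were under the filter, with means of 0.143 and 1.24 for Ucp1 and 0.717 and 0.168 for Elovl3. Hepatocyte and muscle fibre markers gave no call, and 1 of 6 acinar markers, Cela1, rose from 6.73 ± 3.82 to 23.7 ± 5.18 (limma adjusted p = 0.0123). The part of these cell types in the values of Sycp3, Slc5a7 and Lctl was not tested.

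The genes whose profile was most like that of the members were sought over all 27 samples. Among the 14005 genes tested in adipose tissue, the 5 with the highest Pearson correlation of log2(value + 1) to Sycp3 were Lctl (r = 0.98), Gm35906 (0.97), Spaca1 (0.96), Pramef12 (0.96) and Crisp2 (0.96). Spaca1 and Crisp2 encode sperm proteins and Pramef12 a germ cell protein. The 5 for Slc5a7 were Klf14 (0.99), LOC108168262 (0.98), Crisp2 (0.98), Prr32 (0.97) and Lctl (0.97), where Klf14 is a transcription factor studied in adipocytes. The 5 for Lctl were Prr32 (0.99), Crtac1 (0.98), Sycp3 (0.98), Slc22a2 (0.98) and Arxes1 (0.97), of which Arxes1 is an adipocyte gene. These correlations describe samples that fall into tissue and age groups, and no p is given.

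The 10 genes on these lists that are not members were mostly far less abundant. Spaca1 had 1.05 ± 0.459 scaled reads in young and 3.11 ± 0.573 in old adipose tissue, Crisp2 had 0.281 ± 0.271 and 2.80 ± 0.856, and Pramef12 had 0.775 ± 0.258 and 4.15 ± 1.74. Crtac1, an extracellular matrix protein gene, reached 31.8 ± 5.70 in old from 6.64 ± 8.46 in young adipose tissue, and Prr32 reached 14.5 ± 3.37 from 2.61 ± 2.53. None exceeded 0.735 scaled reads in any liver or muscle sample, and the ages did not overlap in adipose tissue for 9 of the 10. Among all 14005 genes tested in adipose tissue, every old mouse lay above every young one for 8.3%. The genes were picked for likeness to members chosen by their rise in old adipose tissue, so nothing is read from these counts.

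**Figure D5:**
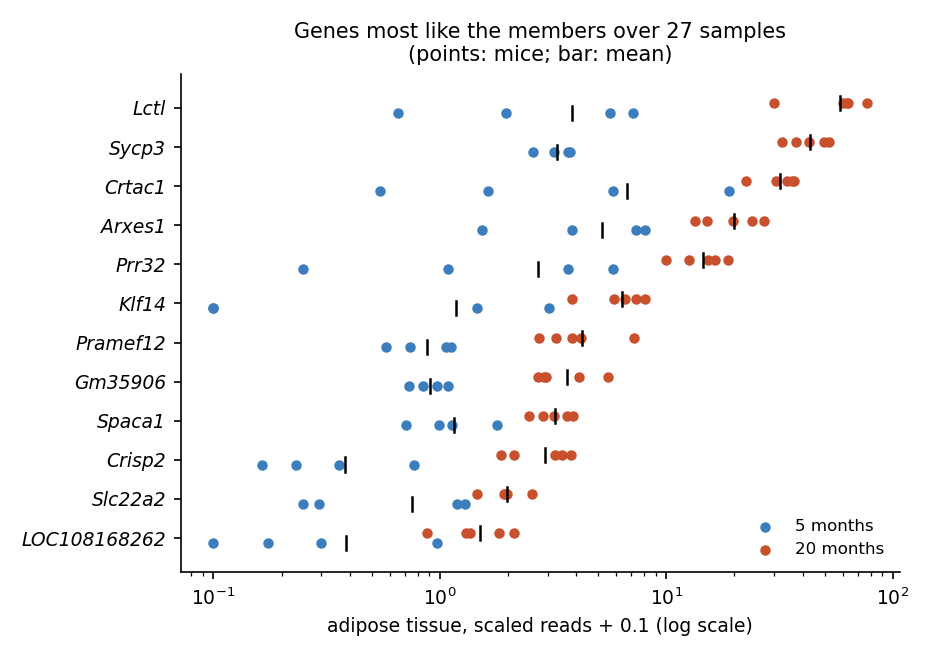
Scaled reads plus 0.1 on a log axis in each adipose sample for the 12 genes most like a member (blue, 5 months, n = 4; red, 20 months, n = 5; black bars, means). Lctl and Sycp3 stand at the top with old means of 58.5 and 42.8, followed by Crtac1 at 31.8, while the sperm genes Spaca1 and Crisp2 stay under 4 scaled reads.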

How the data were processed

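RNA from 27 mouse samples was sequenced after poly-T selection with a directional kit (NEBNext Ultra), and the authors used CLC Genomics Workbench for the counts per gene. The processing notes name the builds GRCm38.p6 and mm10, and the strand setting of the counting is not given in the sources used here. The deposited values are headed as CPM but form a scaled signal, because their totals differ between samples. Each sample's values were whole multiples of 1 read (100% within a tolerance of 0.05), so the reads behind them were recovered. The members and the gene lists were chosen with earlier results of these data known.

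Liver and muscle values of the members were compared by exact two-sided permutation over 126 splits, with Benjamini-Hochberg adjustment over 6 tests, 2 of them on genes at 0 throughout (p = 1). Lists and neighbours were tested with limma 3.58.1 (R 4.3.3, variance trend) on log2(value + 1) for genes that reached a value of 1 in at least 4 of 9 samples, with Benjamini-Hochberg adjustment over all genes tested and a threshold of 0.05. This scale understates changes of low genes. Age changes were compared between tissues in 1 fit of 27 samples. The adipose test was run on simulated counts with the same relative spread for every gene. It recovered 87 of 99 changes of 2-fold and 98 of 98 of 4-fold, with 8 false calls among 14045 genes. This does not cover genes that varied more between mice. The text names the members, the genes that overlap or flank them, the 5 genes most like each member, up to 4 called genes per list, and 11 genes of the same pathways. The 5-month samples of the 3 tissues share mouse numbers, so the mouse is a real pair across tissues, and the deviations of the same mouse from its group means correlated at -0.02 to 0.29 (mean 0.14). Ages within a tissue share no mouse. Coordinates come from GENCODE M21 and RefSeq on GRCm38. The alternatives were edgeR 4.0.16, DESeq2 1.42.0 (both run on those reads), sample weights, other pseudocounts, scalings, filters and left-out samples. Values of a few list genes are not reported here.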

Additional observations from a re-analysis of the deposited data

Results flagged for a closer look

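In a check of 83 groups of 4 or 5 samples (members in every group, named genes in adipose tissue), 6 groups had 1 sample set apart from the rest by Dixon's test on log2(value + 1), where chance alone gives about 1 in 20. Lctl in old adipose tissue was 29.9 scaled reads in mouse 36, against 60.1 in the next lowest mouse. For Sycp1 (0.0779 in mouse 37) and Slc18a3 (0.0582 in mouse D) the lone value is a handful of reads over 0. Dnmt3a in young adipose tissue was lowest in mouse B (35.4, next 41.2). In old adipose tissue Cox8b was lowest in mouse 36 (3.51, next 9.80) and Cidea was highest in mouse 38 (5.74, next 3.85).

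The age change of 7 named genes differed between adipose tissue and another tissue in the limma fit of 27 samples. Among all genes tested it differed from liver for 15.6% and from muscle for 14.7%. The 7 genes were named because they passed the age test in the same adipose samples, so nothing is read from their number. Against liver, E2f6 differed by 0.83 (log2, adipose minus liver, limma adjusted p = 0.00164), with a change of 0.43 in adipose tissue and -0.41 in liver. Gnptab differed by 0.76 (limma adjusted p = 0.00517), with 0.75 and -0.01. Fgfr3 differed by -2.28 (limma adjusted p = 0.0026), with -1.56 and 0.72, Chrnb1 by -1.08 (limma adjusted p = 0.0132) and Chka by -1.11 (limma adjusted p = 0.0328). Chdh differed by -0.87 from liver (limma adjusted p = 0.0387) and by -1.35 from muscle (limma adjusted p = 0.00327). Slc5a6 differed by -0.67 from muscle (limma adjusted p = 0.00724). E2f6, Gnptab, Fgfr3, Chrnb1 and Chka did not pass against muscle (limma adjusted p = 0.587, 0.0602, 0.296, 0.0779 and 0.945). Their changes in muscle were 0.28, 0.26, -0.81, -0.13 and -0.84, each in the direction seen in adipose tissue. Slc5a6 did not pass against liver (limma adjusted p = 0.177).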

How the results depend on the processing

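The higher adipose values of Sycp3, Slc5a7 and Lctl at 20 months kept their direction under all alternatives run. Leaving out 1 sample gave log2 differences of 3.29 to 3.47 for Sycp3, 3.65 to 4.71 for Slc5a7 and 3.42 to 4.21 for Lctl. A pseudocount of 0.1 gave 3.70 for Sycp3 and 5.84 for Slc5a7. Sycp3 came to 3.01 with Adipoq set equal, 3.74 in edgeR and 3.73 in DESeq2, all 3 chosen after seeing the data. In liver and muscle no member passed under any alternative. Leaving out 1 sample gave -0.22 to -0.08 for Sycp3 in liver, and 0.10 to 0.36, 0.38 to 0.54 and 0.14 to 0.25 for Sycp3, Slc5a7 and Lctl in muscle.

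Counts of list genes depended on the fit, and the cause was not tested. The 8 called pathway genes in adipose tissue became 3 with no filter, 34 with sample weights, 14 in DESeq2 and 21 with all 27 samples in 1 fit, and the 18 called marker genes became 9, 32, 32 and 36. Leaving out 1 sample gave 1 to 15 pathway genes and 2 to 23 marker genes. The lowest pathway count of 1 came without mouse A, B, 37, 38, 39 or 40, and the highest without 36. Marker counts fell to 2 without A or B, 3 without 39, 4 without 38 and 5 without 40. For the difference of age changes, leaving out 1 sample gave 7 to 15 pathway genes against liver and 5 to 13 against muscle, the lowest without adipose mouse A. With the replicate block for the mouse, 12 and 10 pathway genes were called in place of 10 and 9, and no named call was lost. Of 25 named genes called in adipose tissue, Chdh, Cidea, Gnptab and Cela1 (4 genes) kept the call under each alternative that tested them. Cidea was left untested by the filter of a mean value of at least 5. No direction reversed. The muscle and liver values of the 3 genes rest on few reads.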
